A study of Mus musculus with 18 samples.

Results

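Apoptosis, necroptosis and pyroptosis are run by different sets of proteins, and 41 genes encoding such effectors were followed here out of 78239 genes counted in the series. The members were listed by name and by known function, with earlier results of these data known. They comprised 4 anti-apoptotic and 3 pore-forming genes of the BCL2 family, 8 BH3-only genes, 5 genes of the apoptosome and of proteins released from mitochondria, 4 apoptotic and 3 inflammatory caspases, 3 inhibitors of apoptosis (IAP), 3 genes of death receptors and their adaptor, 3 necroptosis genes, 2 gasdermins and a last group of 3 with 2 calpains and *Parp1*. RNA was sequenced in 2 experiments. Retinas of mice injected subretinally between postnatal days 29 and 32 were collected at 3 weeks post injection (wpi), with 5 retinal libraries for AAV::*nsHif1a* and 5 for AAV::eGFP. 661W cells, a photoreceptor-like line derived from a mouse retinoblastoma, were collected 20 h after transfection with CMV-*nsHif1a* or CMV-eGFP plasmids, with 4 libraries each. nsHIF1A is a Myc-tagged mouse HIF1A protein that is stable and active in normoxia, and eGFP is the control protein.

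In the retina both transgenes were driven by a mouse promoter that is active in rods, and only part of the retina was transduced, so each retinal library mixed rods that carried a transgene with rods that did not and with all other cells of the tissue. In such bulk RNA, fewer cells of a type and less RNA per cell cannot be told apart. The mice are labelled C57BL/6J, whereas the study's methods name 129S6, and neither group was given as genetically altered. The cells were transfected with lipofectamine, the CMV promoter is active in most cell types, and no label says whether the cell libraries came from separate cultures. The *p*-values for the cells therefore measure only the spread between these libraries, which may be technical.

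Apoptosis through mitochondria is set by the BCL2 family. Anti-apoptotic members (*Bcl2*, *Bcl2l1*, *Bcl2l2*, *Mcl1*) hold the pore formers (*Bax*, *Bak1*, *Bok*) in check, and BH3-only proteins such as PUMA (*Bbc3*), NOXA (*Pmaip1*) and BIM (*Bcl2l11*) relieve this control after stress. Cytochrome c (*Cycs*) then joins APAF1 and caspase-9 in the apoptosome, and XIAP blocks active caspases until it is itself bound by proteins such as SMAC (*Diablo*). Death receptors reach the same end through FADD and caspase-8. Necroptosis runs from RIPK1 and RIPK3 to the membrane-breaking protein MLKL, and pyroptosis from inflammatory caspases to gasdermin D. Most of these proteins are switched on by cleavage, binding or phosphorylation, which RNA levels do not show.

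Total counts ranged from 12898220 to 17809585 in the 18 libraries. The floor of 3 counts lay at 0.168 to 0.233 CPM (counts scaled to a common library size). These floors cover counting error only. Total *Hif1a* RNA, endogenous and transgenic together, was 150 to 164 CPM in the eGFP cells. In the *nsHif1a* cells it was 1220 and 1240 CPM in libraries 1 and 2 and 1950 and 1830 CPM in libraries 3 and 4. In the retina it was 638 to 698 CPM with AAV::eGFP and 642 to 729 CPM with AAV::*nsHif1a*, so the transgene could not be read from the total there. Of 8 HIF target genes, 7 were called higher in the retina, beside 3.31% of all genes at an adjusted *p*-value under 0.05 (limma). The 10 rod markers summed to 15.8 to 20.5 CPM in the cells, where *Arr3*, encoding cone arrestin, had 0 or 1 count. The 661W libraries thus held little RNA of these rod markers and almost none of this cone marker. In the retina the rod markers summed to 46200 to 51100 CPM with AAV::eGFP and 36000 to 48100 CPM with AAV::*nsHif1a*. Of these 10, 5 were lower at an adjusted *p*-value under 0.05 (limma), beside 2.47% of all genes. The part of rod RNA in the values of the members was not tested. Some libraries stood apart. *Xist*, an RNA made from the inactive X chromosome, was present at 19492 to 28595 counts in the whole AAV::*nsHif1a* group and in replicates 1 and 2 of AAV::eGFP, whereas replicates 3 to 5 of AAV::eGFP had 1 to 3 counts. Genes responding to interferon summed to 1260 and 713 CPM in AAV::eGFP libraries 1 and 2, against a group median of 163 CPM. In the cells, replicates 1 and 2 of a group were alike, as were replicates 3 and 4, with a median squared difference of 1.47 to 1.62 times the counting noise, against 3.83 to 9.1 times between those sets.

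In their eGFP controls the 2 experiments differed in the level of most members, as the plot of control levels shows, and of most other genes as well. Levels of different genes are compared here in TPM, which corrects for transcript length as well as library size. Of the 41 members, 27 were higher in every eGFP cell library than in any AAV::eGFP retina, 10 were higher in every retina and 4 overlapped. Over the 20999 genes that passed the count filter with all 18 libraries together, 38.4%, 47.7% and 13.9% did so. The levels were not tested against each other. In the control retina the most abundant member was *Xiap* at 173 ± 20.7 TPM (SD, n = 5), followed by *Bcl2l2* at 91.4 TPM and *Mcl1* at 70.8 TPM, and the ranges of these 3 did not overlap. In the control cells *Bak1* led at 310 ± 3.3 TPM (SD, n = 4), followed by *Capn2* at 183 TPM and *Mcl1* at 173 TPM. The lower 2 of these 3 overlapped, at 175 to 192 and 170 to 177 TPM.

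Between the controls, the 4 largest ratios of mean TPM among the members belonged to *Mlkl*, *Ripk3*, *Gsdmd* and *Casp4*, all higher in the cells, whereas *Ripk1* and *Gsdme* differed less and *Casp1* overlapped. *Ripk3*, encoding the kinase that phosphorylates MLKL, was at 0.269 ± 0.275 TPM in the retina and at 110 ± 1.89 TPM in the cells. *Mlkl* itself was at 0.249 TPM in the retina and 119 TPM in the cells. *Casp4* (0.211 against 23.3 TPM) and *Gsdmd* (1.41 against 163 TPM) followed the same order, as did *Casp12* (0.977 against 62.2 TPM) and *Casp8* (1.38 against 69.9 TPM). The 10 members that were higher in the retina included the protective genes *Bcl2*, *Bcl2l2*, *Xiap* and *Birc2*, the BH3-only genes *Bmf*, *Pmaip1* and *Hrk*, and *Casp9*, *Diablo* and *Endog*. *Bcl2l1*, *Bik*, *Casp1* and *Fas* overlapped between the controls.

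**Figure D1:**
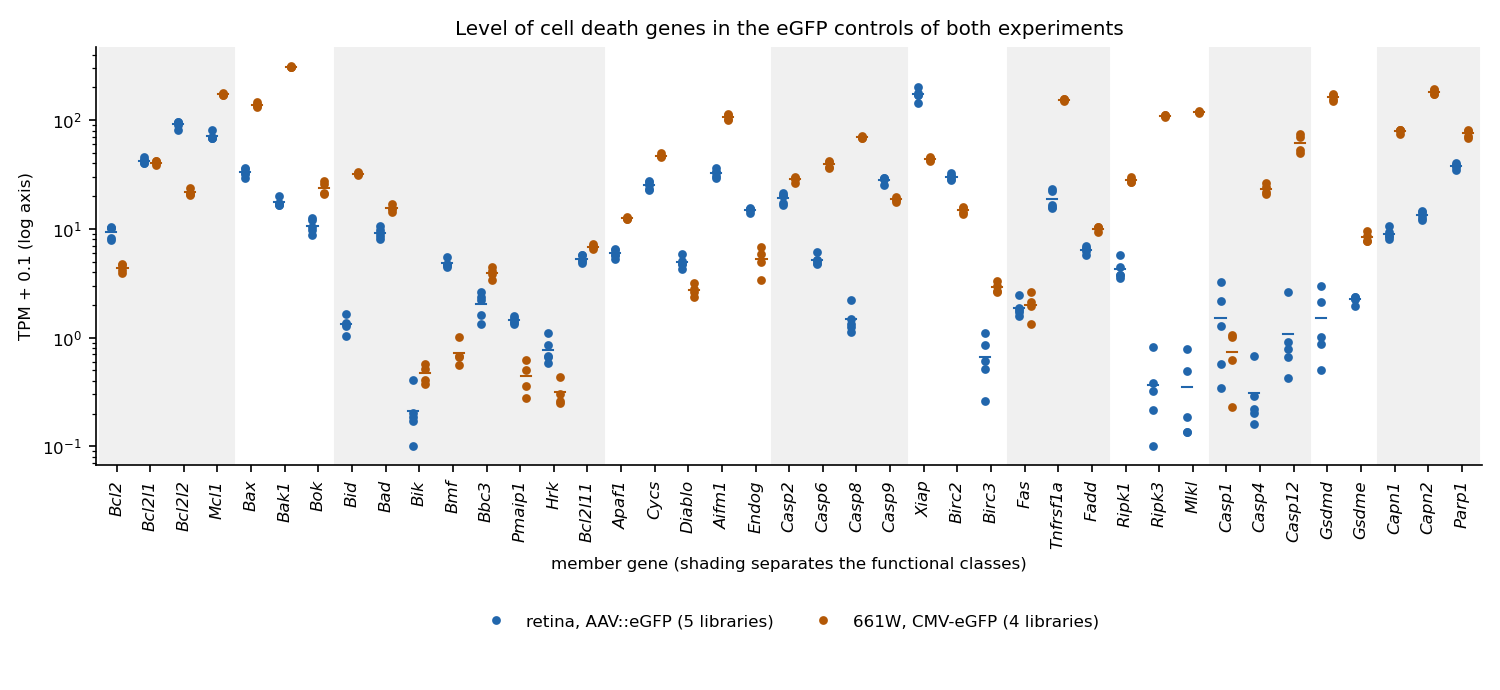
Level of each member in TPM plus 0.1 (log axis) in the 5 AAV::eGFP retinas (blue points) and the 4 CMV-eGFP 661W libraries (orange points), with lines at the group means and shading that separates the classes. *Ripk3*, *Mlkl*, *Casp4* and *Gsdmd* lie at 0.211 to 1.41 TPM on average in the retina and at 23.3 to 163 TPM in the cells, while *Xiap* lies higher in the retina.

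Whether HIF1 activity changed the RNA of these genes was tested in each experiment on its own. Low counts left 37 members tested in the retina and 38 in the cells. In the retina *Bik* and *Ripk3* had at most 8 counts per library and *Mlkl* and *Casp4* at most 22, and in the cells *Pmaip1*, *Hrk* and *Casp1* had at most 12. At an adjusted *p*-value under 0.05 (limma, Benjamini-Hochberg over all genes tested), 0 of the 37 members passed in the retina, where 5.79% of all genes did. At an unadjusted *p*-value under 0.05 there were 12 members (8 higher and 4 lower) in a background of 21.7% (10.7% and 11%). When an absolute log2FC above 0.5 was required beside the adjusted *p*-value, 0 members passed, against 1.08% of all genes with a positive and 0.912% with a negative change. Whatever their *p*-value, 25 of 37 members had a log2FC above 0, beside 49.4% of all genes. In the same data edgeR's quasi-likelihood test called 1 member (*Fas*) and DESeq2 called 2 (*Fas* and *Xiap*). The shares of all genes that these tests called are not given here, so the counts have no background. In the cells 1 of 38 members passed, *Bbc3*, where 2.49% of all genes did, and it also passed a log2FC above 0.5, as did 1.21% of all genes. It was 1 of 38 higher (2.06% of all genes) and 0 were lower (0.426%, or 0.0626% below -0.5). Unadjusted, 7 were higher and 5 lower, beside 11% and 9.67% of all genes, and 19 of 38 had a log2FC above 0, beside 49.7%. The median log2FC of the members was 0.06 in the retina and 0.01 in the cells, beside a median of 0 over all genes in both. Their median absolute log2FC was 0.16 in the retina, beside 0.11 over all genes, and 0.12 in the cells, the same as over all genes.

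The size of a change that these data could have missed differed between members. In the retina the 95% limits of the log2FC lay within 0.5 of 0 for 22 of 37 members, among them *Bcl2*, *Bcl2l1*, *Mcl1*, *Bax*, *Bak1*, *Casp9*, *Xiap* and *Parp1*. The limits of the other 15 reached beyond 0.5, and for *Casp1* they ran from -0.18 to 2.45. In the cells they lay within 0.5 for 28 of 38 members. These limits are drawn for every tested member in the plot of log2FC.

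**Figure D2:**
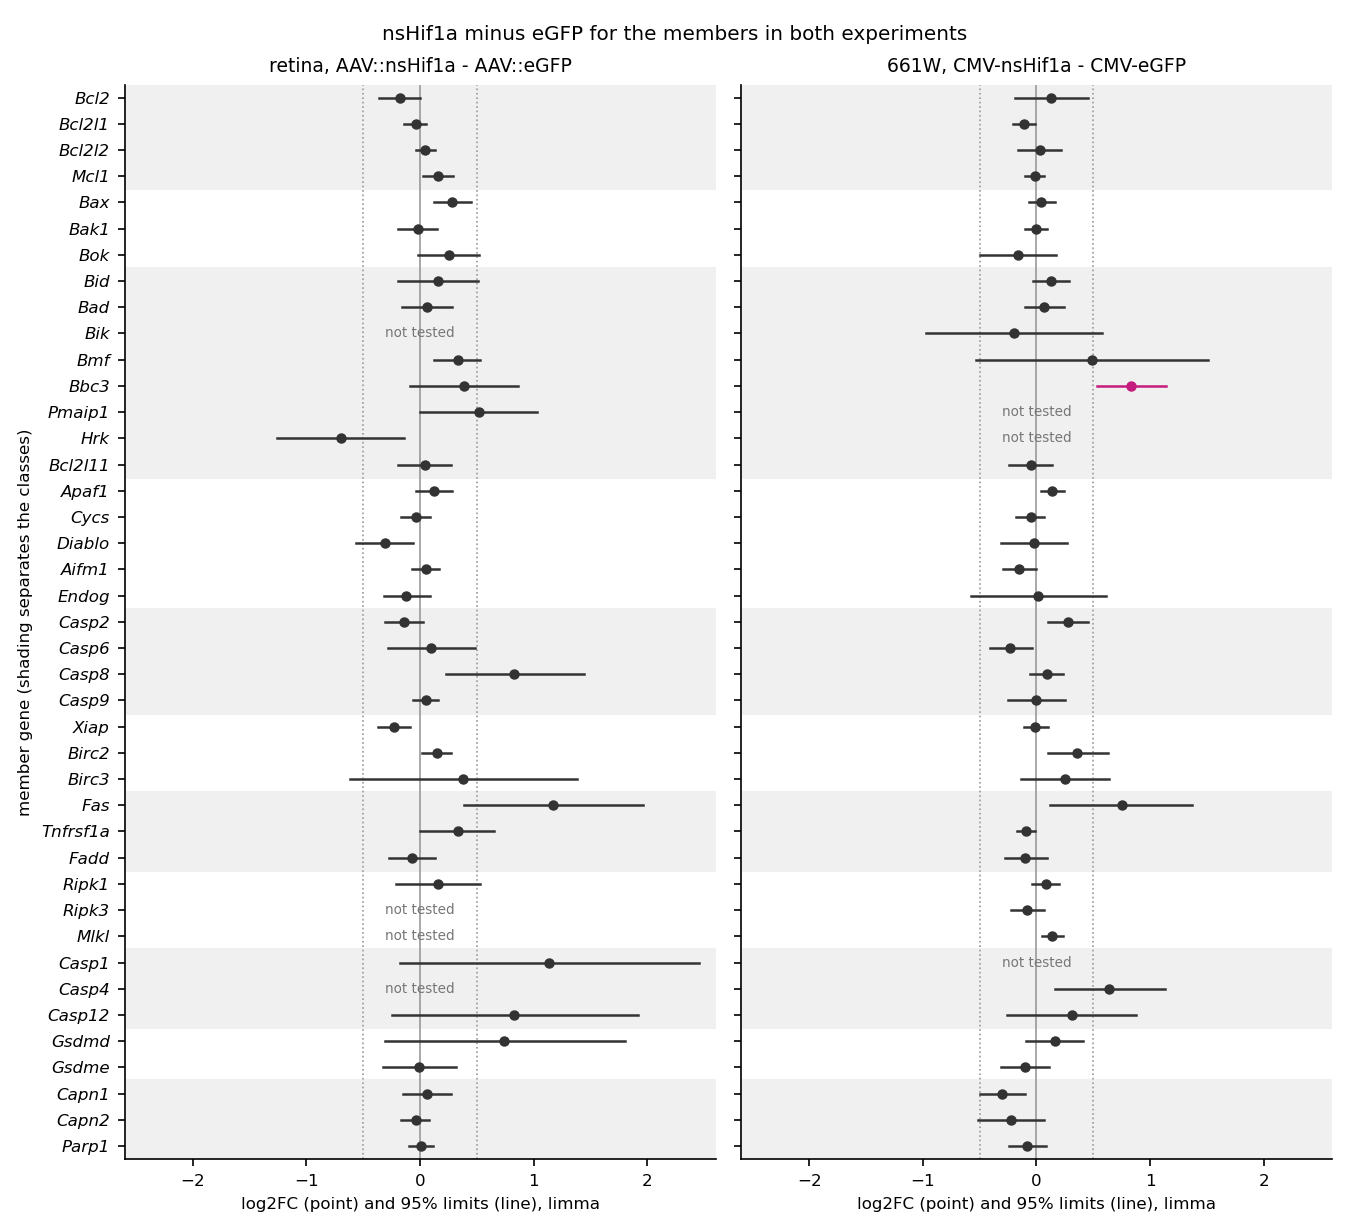
Log2FC of *nsHif1a* against eGFP (points) with 95% limits (lines, limma) for each member in the retina (left, 5 against 5 libraries) and in 661W cells (right, 4 against 4), with dotted lines at 0.5 on either side of 0. *Bbc3* in the cells (pink) is the only member that passed both thresholds, and the widest limits belong to low genes such as *Casp1*, *Birc3* and *Gsdmd* in the retina.

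*Bbc3* encodes PUMA, a BH3-only protein that binds all anti-apoptotic members of the family. It lies on mouse chromosome 7 (GRCm39, chr7:16042318-16052130, plus strand). In the eGFP cells it was at 5.52, 6.35, 7.29 and 6.83 CPM (libraries 1 to 4), and in the *nsHif1a* cells at 13.6, 12.3, 9.42 and 10.9 CPM. All *nsHif1a* libraries were higher than all eGFP libraries. The log2FC was 0.83 ± 0.14 (SE; 95% limits 0.53 to 1.14), which is a 1.78-fold increase, with an adjusted *p*-value of 0.0176 (limma). When the replicate number entered the fit as a block, the adjusted *p*-value was 0.0687 at a log2FC of 0.79, so the call was lost. It was also lost without eGFP library 1 (0.72, adjusted *p*-value 0.0542) or 2 (0.76, 0.057). In the retina *Bbc3* was at 3.52, 3.55, 2.41, 1.98 and 3.84 CPM with AAV::eGFP and at 2.92, 3.78, 4.4, 3.27 and 5.97 CPM with AAV::*nsHif1a*. These groups overlapped (log2FC 0.39 ± 0.22, adjusted *p*-value 0.33), and the difference between the experiments did not pass the test (-0.40 ± 0.26, adjusted *p*-value 0.485).

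The sequences before the transcript starts of *Bbc3*, of *Fas* and *Bax* (the most increased tested member in the retina and the one with the lowest *p*-value there) and of *Bnip3* show whether the core of the hypoxia response element occurs next to them. *Bnip3*, a mitochondrial BCL2-family gene and HIF target that is no member, was called higher in both experiments and is printed for comparison. Each line gives up to 250 bases before the start of the canonical transcript in GRCm39, on the strand of the gene, without bases that belong to another exon of the same gene. For *Bbc3* this window lies inside the annotated gene, which starts at 16042318. Its printed bases directly follow an exon of another *Bbc3* transcript, so they are not the bases before the gene. Capitals mark the hypoxia core (ACGTG or GCGTG on either strand, overlapping matches joined) and, in *Bbc3*, 1 match to an interferon-type motif (GAAA, any 2 bases, then GAAA, on either strand).
Bbc3, chr7:16042434-16042670 (plus strand): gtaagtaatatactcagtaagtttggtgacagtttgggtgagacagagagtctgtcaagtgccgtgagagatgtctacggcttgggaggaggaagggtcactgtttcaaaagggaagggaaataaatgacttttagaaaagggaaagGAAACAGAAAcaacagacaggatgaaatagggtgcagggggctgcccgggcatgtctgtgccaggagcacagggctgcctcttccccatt
Fas, chr19:34267809-34268000 (plus strand): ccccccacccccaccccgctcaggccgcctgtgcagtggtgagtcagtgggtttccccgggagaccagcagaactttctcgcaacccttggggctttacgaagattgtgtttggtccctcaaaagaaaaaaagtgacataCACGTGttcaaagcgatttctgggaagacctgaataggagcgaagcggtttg
Bax, chr7:45116326-45116575 (minus strand): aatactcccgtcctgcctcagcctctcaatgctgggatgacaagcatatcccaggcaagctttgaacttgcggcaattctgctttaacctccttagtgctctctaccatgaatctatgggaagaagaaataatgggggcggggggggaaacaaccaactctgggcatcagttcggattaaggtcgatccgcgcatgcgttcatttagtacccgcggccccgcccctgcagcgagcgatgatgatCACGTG
Bnip3, chr7:138511254-138511503 (minus strand): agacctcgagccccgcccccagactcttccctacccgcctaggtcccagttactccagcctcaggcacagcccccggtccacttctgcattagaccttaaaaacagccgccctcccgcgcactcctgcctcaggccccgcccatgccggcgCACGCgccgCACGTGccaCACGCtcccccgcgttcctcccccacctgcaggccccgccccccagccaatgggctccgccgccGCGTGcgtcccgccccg
In full windows of 250 bases, *Bnip3* held 4 core matches, *Fas* 2, *Bax* 1 and *Bbc3* 0. The second match in *Fas* lies in the bases not printed. The result for *Bbc3* depended on the start chosen, since all 3 starts that RefSeq (GRCm38.p6) gives for this gene had the core in the 250 bases before them. The interferon-type motif was present before 0 of these 3 starts. The core was present in 23 of the 41 member windows (56.1%) and in 41.3% of the windows of all 21751 protein-coding genes. The interferon-type motif occurred in 2 member windows, *Bbc3* and *Mlkl*, and in 3.32% of all windows. A motif match in such a window describes the letters alone.

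Among the other BH3-only genes, *Bmf*, whose protein is held at the cytoskeleton in healthy cells, was at 7.26, 7.95, 7.92, 7.8 and 8.81 CPM in the AAV::eGFP retinas and at 8.85, 10.5, 9.22, 9.89 and 12.1 CPM with AAV::*nsHif1a*. The groups did not overlap, which held upwards for 1 of 37 members and for 3.25% of all genes. The log2FC of 0.33 ± 0.10 missed the threshold (adjusted *p*-value 0.0703). *Hrk*, a neuronal BH3-only gene, was the reverse case, at 1.83, 1.1, 1.42, 0.925 and 1.05 CPM with AAV::eGFP and at 0.75, 0.882, 0.497, 0.75 and 0.898 CPM with AAV::*nsHif1a*. It was the 1 member whose groups lay apart downwards, as 2.69% of all genes did, and its log2FC of -0.70 ± 0.26 missed the threshold as well (adjusted *p*-value 0.138). *Hrk* had only 7 to 24 counts per library. *Pmaip1*, encoding NOXA, was at 1.19 to 1.36 CPM in all AAV::eGFP retinas and at 1.2, 1.89, 1.42, 2.66 and 2.89 CPM with AAV::*nsHif1a* (log2FC 0.52 ± 0.24, adjusted *p*-value 0.227). *Bid*, *Bad* and *Bcl2l11* had log2FC values of 0.04 to 0.16 in the retina and of -0.05 to 0.13 in the cells. In the cells *Bmf* differed within the *nsHif1a* group, with 2.98 and 2.6 CPM in libraries 1 and 2 and 0.936 and 0.711 CPM in libraries 3 and 4.

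Of the pore formers, *Bax* came closest to the threshold in the retina. It was at 14.4, 15.2, 12.9, 12.2 and 12.9 CPM with AAV::eGFP and at 15.8, 15.2, 17.5, 16.9 and 16.7 CPM with AAV::*nsHif1a*, and the groups met at 15.2 CPM. The log2FC was 0.28 ± 0.08 (95% limits 0.12 to 0.45) with an adjusted *p*-value of 0.0501. Against AAV::eGFP libraries 1 and 2, which carried *Xist* RNA like all AAV::*nsHif1a* libraries, the difference was 0.14, and against libraries 3 to 5 it was 0.36. With the *Xist* class in the fit the log2FC was 0.14 (adjusted *p*-value 0.44). *Bak1* (-0.02 ± 0.08) and *Bok* (0.25 ± 0.13) did not pass the test either, and in the cells the 3 pore formers lay between -0.16 and 0.04.

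The anti-apoptotic members had small log2FC values. *Mcl1*, encoding a short-lived guardian of mitochondria, was at 85.9 ± 5.16 CPM with AAV::eGFP and 97.2 ± 8.44 CPM with AAV::*nsHif1a* (SD, n = 5; log2FC 0.16 ± 0.06, adjusted *p*-value 0.138). *Bcl2* was at 29.7 ± 3.7 and 26.2 ± 1.74 CPM (-0.18 ± 0.08, adjusted *p*-value 0.228). Its AAV::eGFP libraries 1 and 2 were at 25.7 and 25.9 CPM and libraries 3 to 5 at 31 to 33 CPM, and the differences from them were 0.02 and -0.30. *Bcl2l1* and *Bcl2l2* had log2FC values of -0.04 and 0.04. In the cells *Bcl2l1* was lower in all 4 *nsHif1a* libraries (67.1 to 69.3 CPM) than in any eGFP library (70.8 to 76 CPM), a log2FC of -0.11 ± 0.04 that did not pass the test (adjusted *p*-value 0.20). The summed level of the 4 genes was 333 to 358 CPM with AAV::eGFP and 349 to 365 CPM with AAV::*nsHif1a*.

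Further down the mitochondrial pathway, 0 of the 5 apoptosome and released-protein genes passed in limma in either experiment. At an unadjusted *p*-value under 0.05 (limma) there was 1 in the retina (*Diablo*, lower), where 11% of all genes were lower. There were 2 in the cells (*Apaf1* and *Aifm1*), beside 20.7% of all genes in either direction. *Apaf1* was at 44.7 to 47 CPM in the eGFP cells and at 48.6 to 51.6 CPM in the *nsHif1a* cells, without overlap, and its log2FC of 0.14 ± 0.04 had an adjusted *p*-value of 0.12. *Aifm1*, encoding apoptosis-inducing factor, had a log2FC of 0.05 in the retina and of -0.15 in the cells. *Diablo* had a log2FC of -0.31 ± 0.11 in the retina (adjusted *p*-value 0.136), from 9.44 ± 1.17 to 7.82 ± 0.97 CPM. *Diablo* shared 48.5% of its 50-base words with the overlapping gene model *Gm49027* and *Cycs* shared 22.8% with other genes, so counts of both are uncertain. *Endog*, encoding a mitochondrial nuclease, had values of -0.12 and 0.01.

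*Xiap*, the most abundant member of the retina, encodes the IAP that blocks caspases directly. It was at 486, 439, 590, 511 and 499 CPM with AAV::eGFP and at 444, 420, 449, 432 and 383 CPM with AAV::*nsHif1a*. The AAV::eGFP libraries were above all AAV::*nsHif1a* libraries except for library 2, which lay within their range. The log2FC was -0.23 ± 0.06 with an adjusted *p*-value of 0.055. *Xiap* is X-linked. The difference was -0.12 against the AAV::eGFP libraries with *Xist* RNA and -0.32 against those without, and the log2FC was -0.11 (adjusted *p*-value 0.45) with the *Xist* class in the fit. In the cells *Xiap* had a log2FC of -0.01 ± 0.05. *Birc2*, encoding cIAP1, which ubiquitinates RIPK1 at the TNF receptor, had log2FC values of 0.15 ± 0.06 in the retina (adjusted *p*-value 0.165) and 0.36 ± 0.12 in the cells (adjusted *p*-value 0.13). The cell libraries of *Birc2* were at 31.8, 32.6, 28.6 and 27.6 CPM with eGFP and at 45.8, 43.8, 31.8 and 33.8 CPM with *nsHif1a*. *Birc3*, encoding cIAP2, varied more than it differed in the retina (1.6 ± 0.931 against 1.95 ± 1.13 CPM).

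Among death receptors, *Fas* had the largest log2FC of all members tested in the retina. It was at 0.993, 1.1, 0.928, 1.12 and 1.43 CPM with AAV::eGFP and at 3.22, 1.39, 3.76, 4.57 and 2.24 CPM with AAV::*nsHif1a*. Library 2 of the AAV::*nsHif1a* group was below the highest AAV::eGFP library, and the other 4 were above it. The log2FC was 1.17 ± 0.36 (95% limits 0.39 to 1.96) and the adjusted *p*-value 0.0809 in limma. It was 0.0205 in edgeR's quasi-likelihood test (log2FC 1.44), 0.000755 in DESeq2 (1.45) and 0.00594 in limma without AAV::*nsHif1a* library 2 (1.61). The values rested on 13 to 67 counts per library. The difference was 1.11 against AAV::eGFP libraries with *Xist* RNA and 1.02 against those without. With the lens γ-crystallin level in the fit the log2FC was 0.60 (adjusted *p*-value 0.29), and the γ-crystallin genes summed to 634 to 2820 CPM with AAV::eGFP and 920 to 19000 CPM with AAV::*nsHif1a*. In the cells *Fas* was at 1.68, 1.36, 1.24 and 0.826 CPM with eGFP and at 2.64, 2.32, 1.35 and 2.25 CPM with *nsHif1a* (0.75 ± 0.28, adjusted *p*-value 0.175), again higher on average with overlap.

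*Tnfrsf1a*, encoding TNF receptor 1, had a log2FC of 0.33 ± 0.15 in the retina (adjusted *p*-value 0.225). In the cells it was at 136 to 140 CPM with eGFP and at 128 to 132 CPM with *nsHif1a*, apart downwards but by only -0.09 ± 0.04 (adjusted *p*-value 0.196). The adaptor *Fadd* had values of -0.07 and -0.10. *Casp8*, the initiator caspase below these receptors, was at 1.45, 2.39, 1.3, 1.26 and 1.05 CPM with AAV::eGFP and at 1.35, 2.39, 2.41, 3.55 and 3.72 CPM with AAV::*nsHif1a*. Its log2FC of 0.83 ± 0.28 did not pass the test (adjusted *p*-value 0.106, limma), and it did without AAV::*nsHif1a* library 1 (adjusted *p*-value 0.0375). The difference was 0.36 against the AAV::eGFP libraries with *Xist* RNA and 0.85 against those without. In the cells, where *Casp8* was far more abundant, the log2FC was 0.09 ± 0.06.

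The other apoptotic caspases split in the cells. *Casp2*, a caspase linked to DNA damage and cell division errors, was at 40.4, 39, 39.8 and 35.9 CPM with eGFP and at 54, 48.3, 43 and 42.6 CPM with *nsHif1a*, without overlap (0.28 ± 0.08, adjusted *p*-value 0.0954). *Casp6* was at 25.2, 25.3, 22.2 and 22.4 CPM and at 20.1, 18.3, 21.9 and 21.2 CPM, apart in the other direction (-0.23 ± 0.08, adjusted *p*-value 0.166). *Casp9* had a log2FC of 0 in the cells and 0.05 in the retina. In all, 4 of 38 members in the cells lay apart upwards (*Bbc3*, *Casp2*, *Apaf1* and *Mlkl*) and 4 downwards (*Bcl2l1*, *Casp6*, *Tnfrsf1a* and *Capn1*), beside 7.51% and 6.11% of all genes. The values of single members by library are drawn in the plot with replicate numbers.

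**Figure D3:**
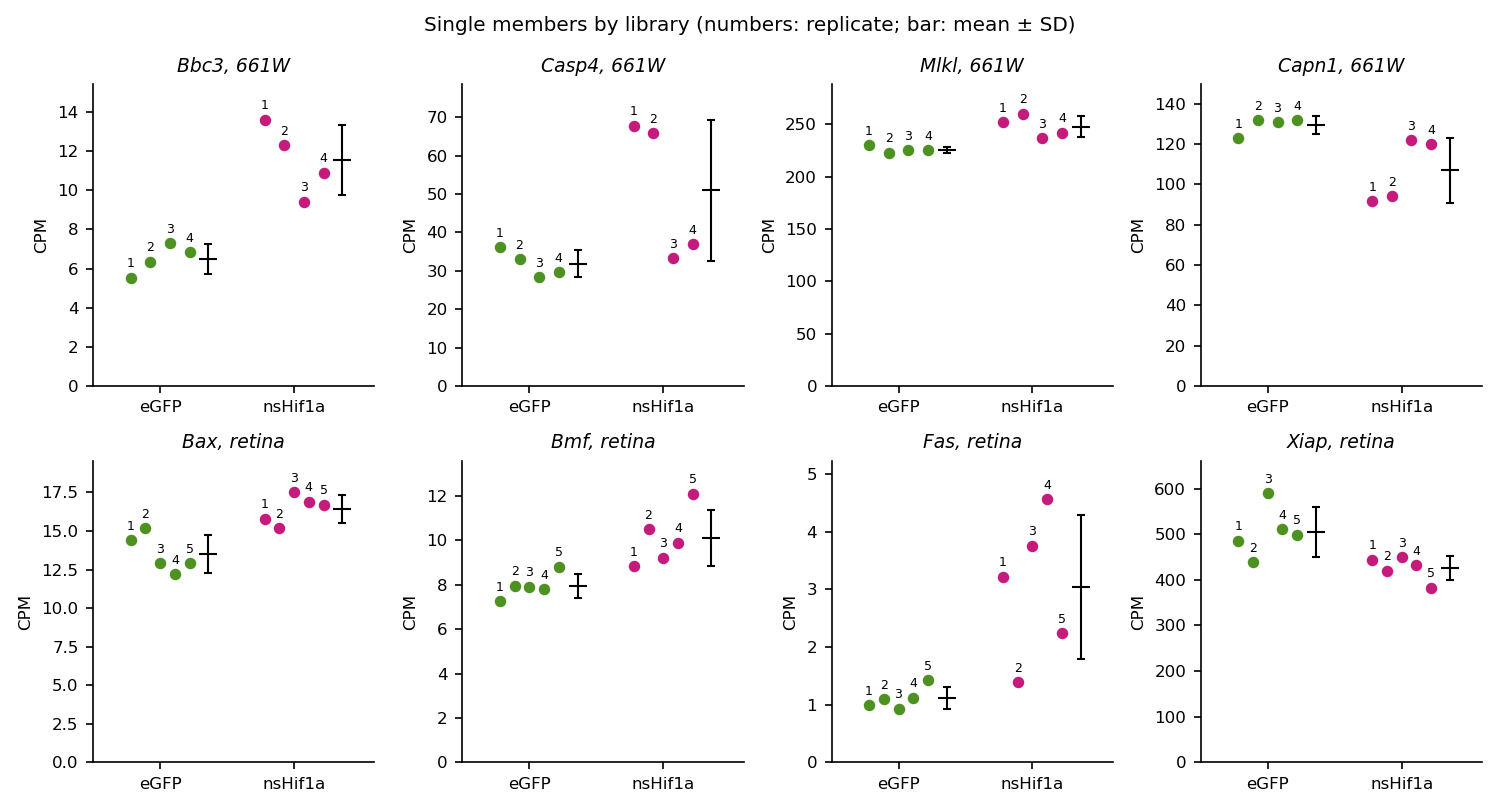
CPM of 8 members in each library, with replicate numbers, for 661W cells (top) and retina (bottom). Green points are eGFP, pink points are *nsHif1a*, and the black bar gives the mean ± SD. *Bbc3* does not overlap between the groups of cells, *Casp4* and *Capn1* differ mainly in replicates 1 and 2, and *Fas* is higher in 4 of 5 AAV::*nsHif1a* retinas than in any AAV::eGFP retina.

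Of the 3 necroptosis genes, *Ripk3* and *Mlkl* were near the limit of detection in the retina. *Ripk3* had 0 to 8 counts per library, at or under 3 counts in 7 of 10, and *Mlkl* 1 to 22. A difference in these genes was not detectable at this depth. *Mlkl* was at 0.688, 1.29, 0.0619, 0.0661 and 0.151 CPM with AAV::eGFP and at 0.075, 0.378, 0.567, 0.545 and 1.41 CPM with AAV::*nsHif1a*. *Ripk1*, which serves survival as well as death signals, was at 10.2 ± 2.45 and 11.3 ± 2.57 CPM (log2FC 0.16 ± 0.17, adjusted *p*-value 0.64). In the cells all 3 genes were well measured. *Mlkl* was at 230, 223, 225 and 225 CPM with eGFP and at 252, 260, 237 and 242 CPM with *nsHif1a*, apart upwards (0.14 ± 0.04, adjusted *p*-value 0.0917), and DESeq2 gave it an adjusted *p*-value of 0.044. *Ripk1* (0.08 ± 0.05) and *Ripk3* (-0.08 ± 0.07) did not pass the test.

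Pyroptosis genes of the retina varied widely within both groups. *Casp1*, the caspase of the inflammasome, was at 1.07, 1.74, 0.248, 0.132 and 0.602 CPM with AAV::eGFP and at 0.375, 1.45, 0.851, 2.05 and 2.37 CPM with AAV::*nsHif1a* (log2FC 1.13 ± 0.61, adjusted *p*-value 0.302). *Gsdmd*, whose product forms the pyroptotic pore, was at 1.53, 2.33, 0.309, 0.595 and 0.678 CPM and at 0.825, 1.51, 0.993, 1.43 and 4.17 CPM (0.74 ± 0.49, adjusted *p*-value 0.405). In both genes the groups overlapped, library 2 was the highest of AAV::eGFP and library 1 the lowest of AAV::*nsHif1a*. *Casp12* had 0.535, 2.52, 0.309, 0.661 and 0.753 CPM with AAV::eGFP and 0.525, 1.45, 1.06, 1.5 and 3.78 CPM with AAV::*nsHif1a* (0.83 ± 0.50, adjusted *p*-value 0.362). *Gsdme*, encoding the other gasdermin among the members, had a log2FC of -0.01 ± 0.15.

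These libraries also differed in markers of microglia and macrophages. The summed level of 11 such markers was 86.7, 180, 41.5, 29.7 and 55.8 CPM with AAV::eGFP and 58.3, 118, 94.6, 162 and 173 CPM with AAV::*nsHif1a*. All 11 had a log2FC above 0, beside 49.4% of all genes. Of them, 5 were at an unadjusted *p*-value under 0.05 (limma), beside 10.7% of all genes that were higher. Past the adjusted threshold in limma there were 0 of 11, beside 3.31%. Markers of lymphocytes and neutrophils stayed at 0.841 to 6.33 CPM in sum, with *Cd3e* at 0 to 13 counts. For each of *Casp1*, *Casp12*, *Gsdmd* and *Mlkl*, the highest AAV::eGFP library was library 2 and the highest AAV::*nsHif1a* library was library 5. These libraries also had the highest marker sums of their groups. The same held for *Casp8*, *Ripk1* and *Tnfrsf1a*, which belong to other steps of cell death. It did not hold for all pyroptosis genes. *Casp4* was highest in AAV::*nsHif1a* library 4 (1.5 CPM, against 0.385 CPM in library 5), and *Gsdme* in AAV::*nsHif1a* library 3 (8.09 CPM). The interferon sum of the AAV::eGFP group was highest in library 1 (1260 CPM) and next in library 2 (713 CPM), and that of the AAV::*nsHif1a* group was highest in library 5 (611 CPM). Against AAV::eGFP libraries 1 and 2 the difference was -0.09 for *Casp1*, 0.13 for *Casp12*, -0.23 for *Gsdmd* and -0.52 for *Mlkl*, and against libraries 3 to 5 it was 1.13, 0.87, 1.01 and 0.78. The part of microglia in these values was not tested.

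**Figure D4:**
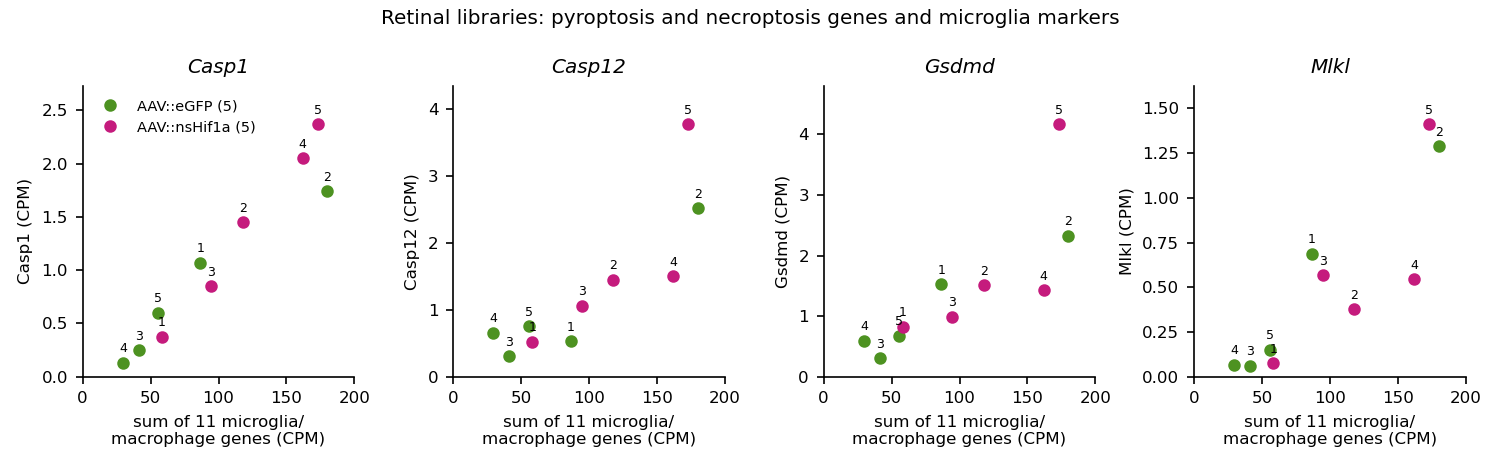
CPM of *Casp1*, *Casp12*, *Gsdmd* and *Mlkl* (vertical axes) against the summed CPM of 11 microglia and macrophage markers (horizontal axes) in the 10 retinal libraries, with replicate numbers. Green points are AAV::eGFP and pink points AAV::*nsHif1a*. In each panel library 2 is the highest green point and library 5 the highest pink point, with marker sums of 180 and 173 CPM.

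Inflammatory caspases were higher in part of the *nsHif1a* cells. *Casp4*, encoding caspase-11, the sensor of intracellular lipopolysaccharide, was at 36.2, 33, 28.4 and 29.6 CPM with eGFP and at 67.8, 65.9, 33.3 and 37 CPM with *nsHif1a*. Libraries 1 and 2 were far above the eGFP libraries and libraries 3 and 4 within or just above their range. The log2FC was 0.64 ± 0.22 with an adjusted *p*-value of 0.143, and DESeq2 gave 0.046. *Casp12* showed the same split, at 108 and 110 CPM in libraries 1 and 2 and 52 and 54.3 CPM in libraries 3 and 4 (0.31 ± 0.25, adjusted *p*-value 0.522, limma). With eGFP it was at 76.2, 72.5, 54.7 and 51.4 CPM, so the control libraries split in the same direction. *Gsdmd* was at 167 and 177 CPM in libraries 1 and 2 and at 120 and 129 CPM in libraries 3 and 4. With eGFP it was at 140, 142, 122 and 129 CPM, again higher in libraries 1 and 2. Genes responding to interferon summed to 8040 to 9040 CPM in the eGFP cells. In the *nsHif1a* cells they summed to 14600 CPM in each of libraries 1 and 2 and to 10000 and 10600 CPM in libraries 3 and 4. At an adjusted *p*-value under 0.05 (limma), 8 of 19 were higher, beside 2.06% of all genes. Their part in the values of the members was not tested.

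*Capn1* and *Capn2* encode the large subunits of the calcium-dependent proteases calpain-1 and calpain-2. In the cells *Capn1* was at 123, 132, 131 and 132 CPM with eGFP and at 91.8, 94.2, 122 and 120 CPM with *nsHif1a*, apart downwards (-0.30 ± 0.09, adjusted *p*-value 0.101). *Capn2* was at 399 and 428 CPM in *nsHif1a* libraries 1 and 2 and at 616 and 628 CPM in libraries 3 and 4, beside 557 to 612 CPM with eGFP (-0.22 ± 0.13, adjusted *p*-value 0.367). In the retina both lay within 0.06 of 0. *Parp1*, whose overactivation drives parthanatos, had a log2FC of 0.01 ± 0.05 in the retina and of -0.08 ± 0.07 in the cells.

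In the cells the replicate sets differed across all genes, the members included. On the scale of log2(CPM + 0.5), the difference between *nsHif1a* and eGFP in replicates 1 and 2 was 1.06 for *Bbc3*, 0.94 for *Casp4* and 0.86 for *Bmf*, and in replicates 3 and 4 it was 0.49, 0.27 and -0.10. *Fas* differed by 0.56 and 0.57, so the set means were alike, but on only 11 to 47 counts per library. Its *nsHif1a* library 3 (1.35 CPM) lay within the eGFP range of 0.826 to 1.68 CPM. The absolute difference was larger in replicates 1 and 2 for 28 of 38 members, beside 69.2% of all genes tested, and exceeded 0.5 for 6 members there and for 1 in the other set, beside 14% and 3.76% of all genes. The direction was the same in both sets for 19 of 38 members, beside 61% of all genes. With the set as a covariate 7 members passed the threshold (*Aifm1*, *Bbc3*, *Birc2*, *Capn1*, *Casp2*, *Casp4* and *Mlkl*), where 12.6% of all genes did. Without *nsHif1a* library 3 or 4, 18 passed, where 31.2% of all genes did, and with the counts of each set added 0 passed in limma, with 1 at an unadjusted *p*-value under 0.05. No label names what separates the sets. In the *nsHif1a* cells, total *Hif1a* RNA was lower in libraries 1 and 2 (1220 and 1240 CPM) than in libraries 3 and 4 (1950 and 1830 CPM). The relation of this RNA to the set differences was not tested.

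**Figure D5:**
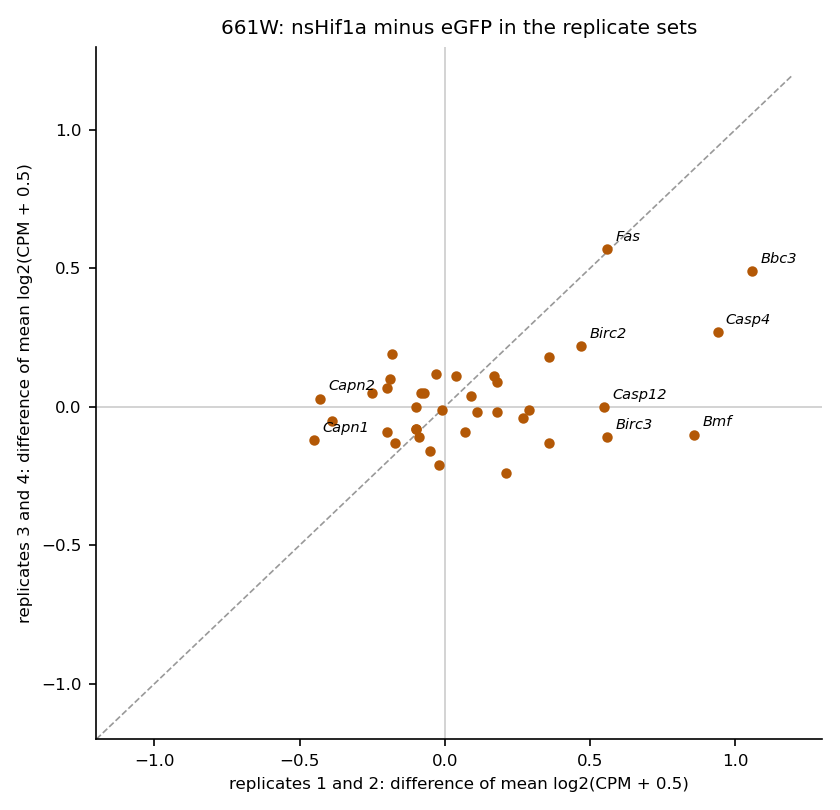
Difference between *nsHif1a* and eGFP in mean log2(CPM + 0.5) for the 38 members tested in the cells, in replicates 1 and 2 (horizontal axis) and in replicates 3 and 4 (vertical axis), with a dashed line where both are equal. *Bbc3*, *Casp4* and *Bmf* lie far to the right at 1.06, 0.94 and 0.86, and *Fas* lies on the line.

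Whether *nsHif1a* acted differently on these genes in the 2 experiments was tested with an interaction term over all 18 libraries. At an adjusted *p*-value under 0.05, 0 of 41 members passed, where 2.33% of all genes did, and 8 members had an unadjusted *p*-value under 0.05, beside 16.8% of all genes. DESeq2 called 2 of them (*Casp2* and *Casp8*), and edgeR's quasi-likelihood test 0, without a share of all genes given here. *Casp2* had the lowest *p*-value, with a log2FC of -0.14 in the retina and 0.28 in the cells and a difference of -0.38 ± 0.12 (adjusted *p*-value 0.0922). With the replicate numbers of the cells as a block, *Casp2* passed. *Tnfrsf1a* differed by 0.43 ± 0.15 (adjusted *p*-value 0.135) and *Bax* by 0.24 ± 0.09 (0.146).

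Of 42 further genes of the same pathways, taken from 6 lists that include ligands, inflammasome, mitochondrial, calpain and upstream genes, 35 were tested in the retina and 33 in the cells. In the retina 5 were higher and 0 lower at an adjusted *p*-value under 0.05 in limma (7 and 0 unadjusted), beside 3.31% and 2.47% of all genes, and 1 of them had a log2FC above 0.5. *Bnip3*, whose product drives mitophagy under hypoxia, rose from 124 ± 8.19 to 244 ± 36.1 CPM in the retina (log2FC 0.98 ± 0.09, adjusted *p*-value 0.000167) and from 14.6 ± 0.725 to 53.6 ± 6.65 CPM in the cells (1.85 ± 0.09, adjusted *p*-value 3.38e-05). The increase was larger in the cells, with a difference of -0.90 ± 0.17 (adjusted *p*-value 0.0135). *Bnip3* shared 14.5% of its 50-base words with other genes. The related *Bnip3l* rose by 0.46 and the mitochondrial channel gene *Vdac1* by 0.35 in the retina, as did *Mdm2* (0.18) and *Foxo3* (0.28). In the cells 3 of the 33 tested were higher and 0 lower at an adjusted *p*-value under 0.05 in limma (8 and 1 unadjusted), beside 2.06% and 0.426% of all genes. Beside *Bnip3* these were *Ddit3*, encoding CHOP, a transcription factor of the ER stress response, and *Foxo3*. *Ddit3* rose by 0.61 ± 0.10 (adjusted *p*-value 0.0227, limma) and *Foxo3* by 0.53 ± 0.09 (0.0174). The lists of death ligands with their receptors and adaptors and of the inflammasome held 0 genes past the adjusted threshold in both experiments, with 0 at an unadjusted *p*-value under 0.05 in the retina and 2 each in the cells, and that of the calpain system held 0, with 1 and 0 unadjusted.

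*Bax*, *Bbc3*, *Fas*, *Pmaip1* and *Apaf1* are textbook p53 targets, and other p53 targets were counted from a list for that reason. In the retina 4 of 10 tested were higher and 1 lower at an adjusted *p*-value under 0.05 (limma), beside 3.31% and 2.47% of all genes. *Cdkn1a*, encoding the cell cycle inhibitor p21, rose from 5.16 ± 0.617 to 12.7 ± 4.3 CPM (log2FC 1.24 ± 0.23, adjusted *p*-value 0.00833). In the cells 1 of 11 passed, beside 2.06% of all genes that were higher. It was *Sesn2* (0.74 ± 0.12, adjusted *p*-value 0.0143, limma), which also responds to the integrated stress response. *Cdkn1a* was at 224 ± 69 and 261 ± 82.7 CPM there (0.18 ± 0.27).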

How the data were processed

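Stranded mRNA libraries of retinas (5 per group) and 661W cells (4 per group) were assigned to groups from their labels. The authors aligned reads to GRCm39 (Rsubread), counted them by gene and strand (featureCounts) and deposited raw counts, without a filter or normalization, as 1 table for each experiment.

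Genes with low counts were dropped by filterByExpr (minimum count 10), libraries were scaled by TMM (edgeR 4.0.16), and voomWithQualityWeights values were fitted with lmFit and eBayes (limma 3.58.1, R 4.3.3). Adjusted *p*-values (Benjamini-Hochberg) cover all genes tested, 18859 in the retina, 15962 in the cells and 20999 in the interaction. A gene was called at an adjusted *p*-value under 0.05, and the absolute log2FC threshold was 0.5. CPM values are scaled by TMM. TPM values use exon lengths of the gencode annotation, which held 78168 of the 78239 genes counted. Within-set differences used log2 of CPM with a pseudocount of 0.5. Results were recomputed in DESeq2 1.42.0, in edgeR's quasi-likelihood test and under the settings named in the closing section. The code was tested on simulated counts.

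The members, gene lists and comparisons were chosen with earlier results of these data known. All 41 members are named by class, and pathway genes that are no members are named where called, or where few of a list were counted. Correlations of deviations from the group means between same-numbered cell libraries were 0.253 to 0.294. Libraries with different numbers were not compared in this way, so these values cannot separate pairing by number from the replicate sets. The replicate block for the cells is therefore an alternative fit, and pairing was not shown. No 2 libraries held identical values. Counting by strand keeps overlapping genes on opposite strands apart, whereas near-identical copies can share or lose reads. Some genes of the lists are not reported here by name.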

Additional observations from a re-analysis of the deposited data

Results flagged for a closer look

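In 6 of 150 combinations of a member and a group, 1 library lay far from the others of its group by Dixon's criterion, and chance alone flags about 1 in 20 groups. In the retina, *Casp12* was at 2.52 CPM in AAV::eGFP library 2 against 0.309 to 0.753 CPM in the other 4. *Gsdmd* was at 4.17 CPM in AAV::*nsHif1a* library 5, against 0.825 to 1.51 CPM. *Capn1* was at 18.4 CPM in the same library, against 13 to 14.4 CPM. *Ripk1* was at 6.82 CPM in AAV::*nsHif1a* library 1, against 11.7 to 13.3 CPM, and this library also had the lowest sum of microglia and macrophage markers in its group (58.3 CPM). *Gsdme* was at 8.09 CPM in AAV::*nsHif1a* library 3, against 4.72 to 5.45 CPM. In the cells, *Capn1* was at 123 CPM in eGFP library 1 against 131 to 132 CPM, a gap that is small beside the *nsHif1a* values of 91.8 to 122 CPM.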

How the results depend on the processing

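The number of members past an adjusted *p*-value of 0.05 was small under most alternatives, and no member changed direction where either fit passed the threshold. In the retina, where limma gave 0, there was 1 member in edgeR's quasi-likelihood test (*Fas*), with RLE size factors (*Bax*) and with the γ-crystallin level as a covariate (*Bmf*), and there were 2 in DESeq2 (*Fas*, *Xiap*) and at a minimum count of 30 (*Bax*, *Xiap*). It stayed at 0 in voom without sample quality weights, without the filter, with the *Xist* class as a covariate, among libraries with *Xist* RNA alone and with the replicate number as a block, although those numbers did not pair the retinas (correlations of -0.171 to 0.158). Leaving out each retina gave 0 to 2 (*Bax* and *Xiap* without AAV::eGFP library 1 or 2, *Casp8* without AAV::*nsHif1a* library 1, *Bax* and *Fas* without library 2). In the cells, where limma gave 1, there were 3 in DESeq2 (*Bbc3*, *Casp4*, *Mlkl*), 7 with the replicate set as a covariate, 0 with the replicate block and 0 with the counts of each set added, and leaving out each library gave 0 to 18. For the difference between the experiments, where limma gave 0, there were 2 in DESeq2, 1 with the replicate block of the cells and 0 to 7 when each library was left out (7 without *nsHif1a* cell library 3 or 4, and *Tnfrsf1a* without AAV::*nsHif1a* retina library 1). Among these alternatives, a share of all genes is given only for the cells, with the replicate set as a covariate and without *nsHif1a* library 3 or 4. The other counts have no such background here. The cause of these shifts was not tested. Low counts limit *Ripk3*, *Mlkl*, *Casp4*, *Bik* and *Hrk* in the retina.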

Other observations

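Some genes of the pathway lists that are no members missed the adjusted threshold in the cells although their groups did not overlap, and they were chosen here after their values were seen. *Zbp1*, encoding a nucleic acid sensor that can start necroptosis, was at 230 to 240 CPM in the eGFP cells and 251 to 389 CPM in the *nsHif1a* cells, without overlap (log2FC 0.46 ± 0.12, adjusted *p*-value 0.0785, limma). *Tnfsf10*, encoding the death ligand TRAIL, was at 3.48 to 4.41 CPM and 5.26 to 18 CPM (1.41 ± 0.42, adjusted *p*-value 0.104), and *Il18*, encoding a cytokine processed by caspase-1, at 9.7 to 11.9 CPM and 12.1 to 17.8 CPM (0.46 ± 0.15, adjusted *p*-value 0.126). In the retina the highest single libraries of *Tnfsf10* and *Zbp1* were in the AAV::eGFP group, at 36.2 and 8.72 CPM, and the groups overlapped. The fitted log2FC in the retina was -0.2 for *Tnfsf10* but 1.35 for *Zbp1*, and neither passed the adjusted threshold in limma. Of 10 genes of the integrated stress response, 7 were higher in the retina at an adjusted *p*-value under 0.05 (limma), beside 3.31% of all genes. A log2FC above 0.5 was reached by 3 of these, beside 1.08% of all genes. In the cells 8 of 10 were higher, beside 2.06%, and 7 of these had a log2FC above 0.5, beside 1.21%.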
